A study of Homo sapiens with 3 samples.

Results

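The HOX cluster genes were described in H660 cells, a human cell line of neuroendocrine prostate cancer. Members were rows of the expression table whose symbol is HOX, a cluster letter from A to D and a number, and they made up 38 of 58735 rows, with 37 symbols because HOXC5 has 2 rows. RNA-seq was done on parental H660 cells treated for 24 h with vehicle (DMSO), with 2.5 μM JG231 or with 5 μM JG231, an allosteric inhibitor of the chaperone HSP70. Each condition had 1 library, so no value has a replicate error and no test between conditions was possible. The 2.5 μM library is called the lower dose and the 5 μM library the higher dose, and values of 3 libraries in a row stand in the order DMSO, lower and higher dose. A single DMSO library served as the control of both doses, so their changes share its error. Expression is given as FPKM, a fragment number scaled to transcript length and sequencing depth, so that levels of different genes can be compared.

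HOX genes encode homeodomain transcription factors that give cells of the embryo their position along the body axis, and many adult tissues and tumours keep part of that pattern. The genes lie in clusters A to D, and genes of the same number in different clusters are paralogs, with low numbers used towards the head and high numbers towards the tail and in the urogenital tract. HOX proteins bind DNA together with cofactors of the TALE family, Polycomb complexes keep the clusters silent and trithorax complexes keep them active.

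The samples are labelled as prostatic adenocarcinoma, and the markers were those of neuroendocrine cells without luminal prostate genes. Of 9 neuroendocrine markers, 6 were over 1 FPKM in DMSO, and their summed level was 142, 92.4 and 78.4 FPKM. NEUROD1, a neuronal lineage factor, was listed at 0 in each library. The 6 luminal prostate markers found in the table summed to 1.97, 1.26 and 2.09 FPKM in the same order of libraries, most of it ACPP, prostatic acid phosphatase, and KLK2 was listed at 0 in all 3. The 4 epithelial markers were high, with a sum of 716, 1000.2 and 1165 FPKM, and 3 of them were higher at 2.5 μM and 2 at 5 μM, with none lower. The 3 basal markers summed to 0.5003, 0.059 and 0 FPKM, all of it TP63, and the 3 stromal markers to 0.840, 0.811 and 1.32 FPKM. COL1A1 was higher at 5 μM, by 0.57, and passed the filter through the JG231 library alone. The 3 immune markers were listed at 0 throughout. Of the 7 neuroendocrine markers that could be compared at each dose, 5 were lower and 2 higher at 2.5 μM, 1 of the 2 having passed the filter through the JG231 library alone, and 6 lower and none higher at 5 μM. Beside these marker counts, 36.4% of all genes were higher and 43.4% lower at 2.5 μM, and 36.5% and 45.1% at 5 μM. The part of these shifts in the changes of the HOX genes was not tested. In these bulk libraries, fewer cells with a transcript and less of it per cell cannot be told apart.

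The depth was read from the FPKM steps. In genes with 1 transcript, FPKM multiplied by exon length fell within 0.05 of a whole number of fragments for 89.9% of 4318 low genes in DMSO, 87.2% of 2904 at 2.5 μM and 84.9% of 1615 at 5 μM. The steps gave 16.1 M fragments in DMSO, 20.4 M with the lower and 24.04 M with the higher dose. Although depth rose with dose, the genes above 0 fell from 21862 to 19352 and 17293, so a low gene listed at 0 in a JG231 library was a common event across the transcriptome. Fragments of single genes use the exon length of GENCODE release 44 and are approximate.

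H660 cells expressed mainly the HOXB and HOXA clusters. In DMSO the members summed to 192 FPKM, of which HOXB gave 61.5%, HOXA 28.3%, HOXD 6.19% and HOXC 3.97%. The 4 highest members in DMSO, HOXB2, HOXA9, HOXB7 and HOXB9, gave 56.5% of the sum. HOXB2 lay above 94.2% of protein-coding genes, HOXA9 above 94.0% and HOXB7 above 93.6%. In each library 19 of 38 rows were over 1 FPKM, against 58.0% of protein-coding genes in DMSO. All of the HOXB members but HOXB1, 8 of 9 rows, exceeded 1 FPKM in at least 1 library, as did 7 of 10 in HOXA, 6 of 9 in HOXD and 1 of 10 in HOXC.

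**Figure D1:**
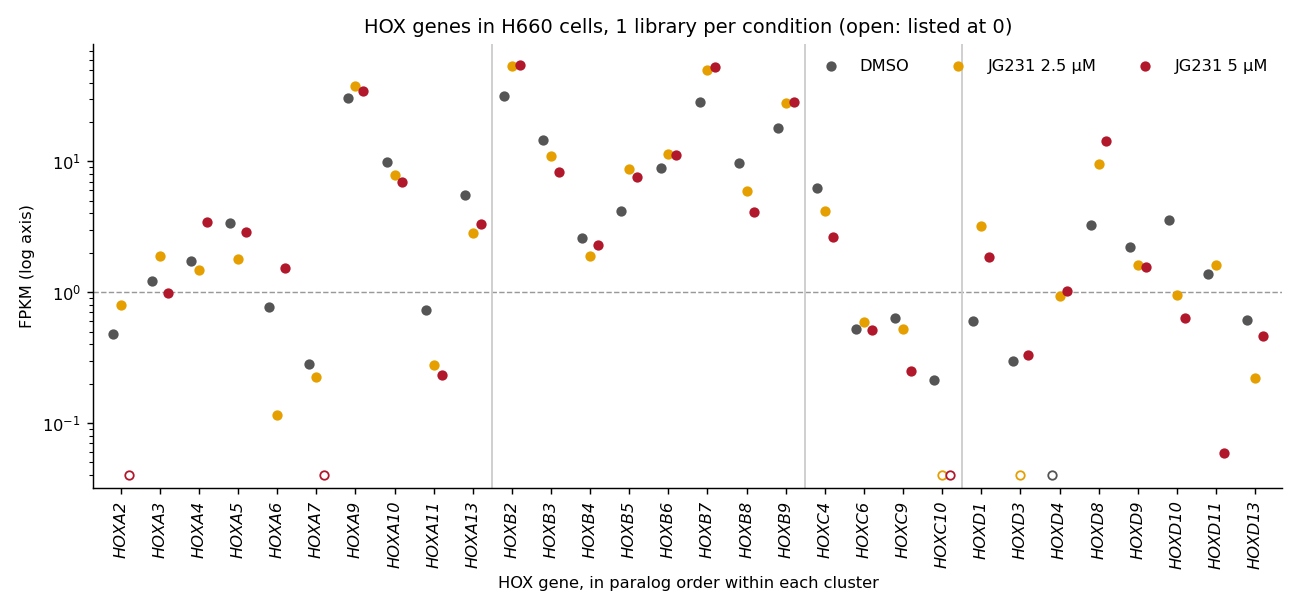
FPKM on a log axis of every HOX member above 0 in at least 1 library, with 1 point for each of the 3 libraries, open points at the bottom for values listed at 0 and a dashed line at 1 FPKM. HOXB2, HOXB7, HOXB9 and HOXA9 are the highest in all 3 libraries, and HOXC4 is the only member of its cluster over 1 FPKM.

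The clusters moved differently between the libraries. HOXB summed to 118, 170.3 and 169.5 FPKM, a log2 ratio of 0.53 at 2.5 μM and 0.52 at 5 μM. HOXD, starting from a much lower level, summed to 11.9, 18.1 and 20.3 FPKM, with log2 ratios of 0.60 and 0.77. This rise rested on HOXD8, since without it, a choice made after the values were seen, HOXD summed to 8.65, 8.54 and 5.91 FPKM, with log2 ratios of -0.018 and -0.55. HOXC ran the other way, with 7.62, 5.30 and 3.39 FPKM and log2 ratios of -0.52 and -1.17. The HOXA sum stayed level, at 54.5, 55.2 and 53.6 FPKM, while its members moved in both directions. At 5 μM the approximate 95% counting intervals of these log2 ratios were 0.47 to 0.57 for HOXB, 0.61 to 0.93 for HOXD, -1.42 to -0.92 for HOXC and -0.095 to 0.050 for HOXA, and intervals from fragments cover counting error only. The median of all genes compared lay at -0.11 at 5 μM and -0.08 at 2.5 μM, and relative to it the 5 μM ratios were 0.63 for HOXB, 0.88 for HOXD, -1.06 for HOXC and 0.088 for HOXA. The signs of the HOXB, HOXC and HOXD ratios held at both doses when the libraries were rescaled to a common FPKM sum, with or without mitochondrial and small RNA genes, or centred on the median gene, and that of HOXA did not. Rescaling without mitochondrial and small RNA genes, which took 40.4%, 24.6% and 29.2% of all FPKM in the 3 libraries, moved the median of all genes to -0.53 at 5 μM and -0.40 at 2.5 μM and brought the HOXB ratios down to 0.14 and 0.24. This rescaling takes 0.38 at 5 μM and 0.29 at 2.5 μM off each log2 ratio of sums.

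**Figure D2:**
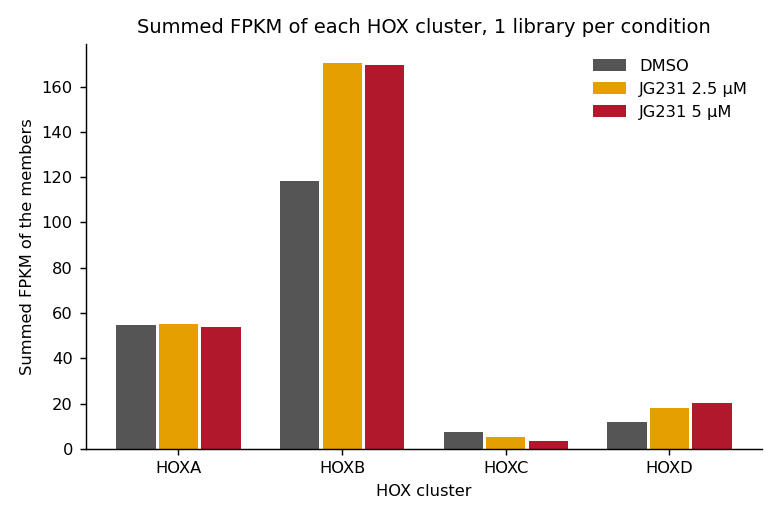
FPKM summed over the members of each HOX cluster, with 1 bar for each of the 3 libraries and bars starting at 0. HOXB is at 118 FPKM without JG231 and at 170.3 and 169.5 FPKM with the lower and higher dose, HOXC falls with dose from 7.62 to 3.39, and HOXA stays level over the 3 libraries.

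Members were counted as changed where FPKM was over 1 in at least 1 of the 2 libraries compared and log2((FPKM + 0.1)/(FPKM in DMSO + 0.1)) was over 0.25 in size, a scale that understates the change of low genes. At 5 μM, 22 of 38 rows could be compared, and 10 were higher and 9 lower, or 45.5% and 40.9%, beside 36.5% higher and 45.1% lower among 15765 genes. At 2.5 μM, 20 rows could be compared, and 9 were higher and 9 lower, or 45.0% each way, beside 36.4% and 43.4% of 15746 genes. A shift of 2 members would cover the difference between each of these shares and that of all genes. Of the 22 rows at 5 μM, 3 passed the filter through the JG231 library alone (HOXA6, HOXD1 and HOXD4) and 3 through DMSO alone (HOXA3, HOXD10 and HOXD11), so the sign of these 6 changes was fixed by the filter. The median change of the compared members was -0.00085 at 5 μM beside -0.11 for all genes, and -0.0072 at 2.5 μM beside -0.08. As most members lay on either side of 0 with few near it, these medians shift easily, to -0.54 and -0.28 after rescaling without mitochondrial and small RNA genes and to -0.23 and -0.27 with the trend with transcript length removed. The medians of all genes were then -0.53 and -0.40 and, without the trend, -0.16 and -0.15. The Spearman correlation of length and change was -0.51 at 5 μM and -0.15 at 2.5 μM among compared members. Among protein-coding genes it was -0.37 and -0.26. With a threshold of 1, 3 members were higher and 4 lower at 5 μM, beside 14.7% and 24.3% of all genes, and at 2.5 μM 3 were higher and 1 lower, beside 12.9% and 21.7%. Rescaled to a common FPKM sum, with or without mitochondrial and small RNA genes, 8 of 21 members were higher and 11 lower at 5 μM, beside 31.5% and 49.98% of all genes in the rescaling with them and 23.0% and 60.1% in that without. At 2.5 μM the rescaling without them gave 7 higher and 10 lower of 20, beside 24.6% and 56.2%. Removal of the length trend gave 9 and 11 at 5 μM, beside 32.9% and 46.5%, and 7 and 10 at 2.5 μM, beside 32.8% and 45.9%. As a yardstick, a local spread was computed for each gene as the robust SD of the log2 difference between the JG231 libraries among the 500 genes closest to it in mean FPKM, and it also holds any effect of dose. At 5 μM, 7 members were higher and 5 lower by more than 2 of these spreads, a rule chosen after the values were seen, beside 20.4% and 22.4% of all genes. At 2.5 μM the same rule gave 6 higher members and 1 lower, beside 19.1% and 19.0%. Of these, HOXD1, HOXD4, HOXD10 and HOXD11 at 5 μM and HOXD1 and HOXD10 at 2.5 μM passed the filter through 1 library alone, so the sign of their change was fixed.

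**Figure D3:**
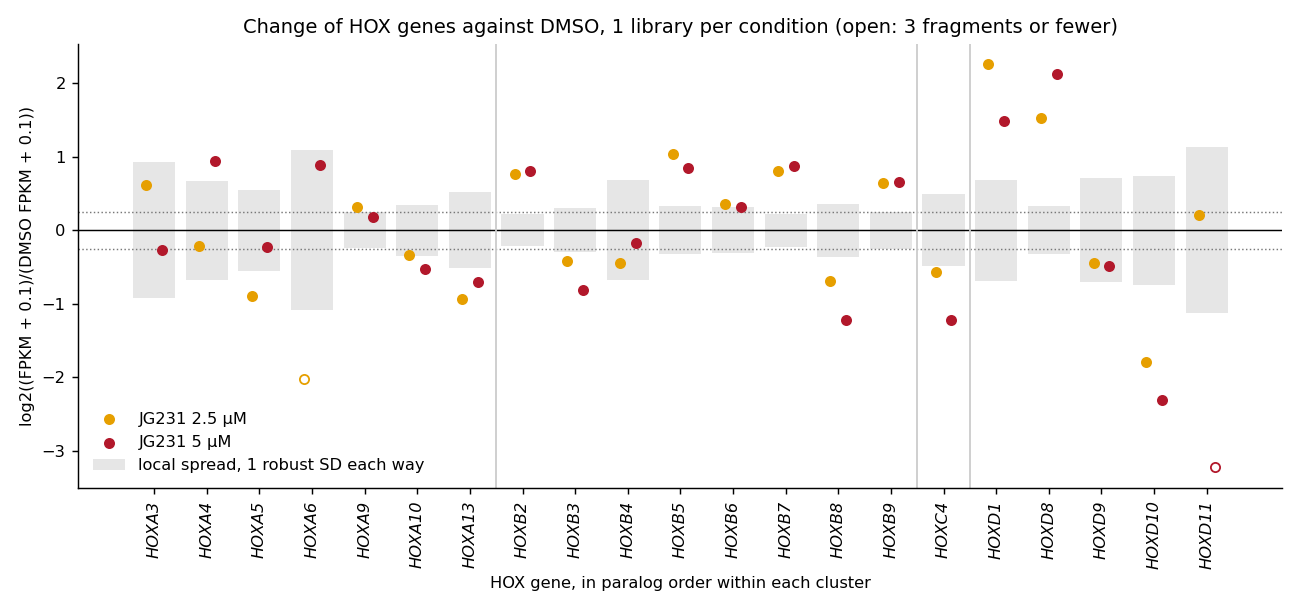
Change on the log2((FPKM + 0.1)/(DMSO FPKM + 0.1)) scale at 2.5 μM and 5 μM JG231 for the HOX members over 1 FPKM in at least 1 library, without HOXD4, which was listed at 0 in DMSO. Grey bars span the local spread to either side of 0, dotted lines mark 0.25 and open points rest on 3 fragments or fewer; HOXB2, HOXB5, HOXB6, HOXB7, HOXB9, HOXD1 and HOXD8 lie above their bars at both doses and HOXA13, HOXB3, HOXB8, HOXC4 and HOXD10 below.

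The HOXB cluster (chr17:48528526-48633572 of GRCh38, from HOXB1 to HOXB9 and the transcripts around them) held 3 of the 4 highest members, HOXB2, HOXB7 and HOXB9. HOXB2, which patterns the hindbrain, was at 31.6 FPKM without JG231, 53.5 FPKM with the lower and 55.0 FPKM with the higher dose, a log2 change of 0.76 and 0.80 (lower, then higher dose) against a local spread of 0.22. HOXB7, a paralog group 7 gene overexpressed in several carcinomas, was at 28.6 FPKM without JG231, 49.8 FPKM with the lower and 52.6 FPKM with the higher dose, a log2 change of 0.80 and 0.88 (lower, then higher dose). HOXB9, which shapes the thoracic skeleton, was at 17.9 FPKM without JG231, 28.1 FPKM with the lower and 28.4 FPKM with the higher dose, a log2 change of 0.65 and 0.66 (lower, then higher dose). At 5 μM these changes were smaller after rescaling without mitochondrial and small RNA genes, at 0.42, 0.50 and 0.28 in that order, and with the length trend removed, at 0.43, 0.42 and 0.49. At 2.5 μM they were 0.47, 0.51 and 0.36 after that rescaling and 0.49, 0.47 and 0.51 without the trend. HOXB7 and HOXB9 share no exon base with another gene and HOXB2 shares 3.54%. HOXB5, which acts in the enteric nervous system, had 4.20, 8.73 and 7.66 FPKM in DMSO, 2.5 μM and 5 μM, a log2 change of 1.04 and 0.85 (lower, then higher dose), and after that rescaling 0.75 and 0.48. HOXB6 had 8.90, 11.4 and 11.1 FPKM in that order, a log2 change of 0.36 and 0.32 (lower, then higher dose), close to its local spread of 0.31. The higher value of HOXB6 at 5 μM turned to -0.060 after that rescaling and to -0.056 with the length trend removed, and fell to 0.186 with all genes in the common sum. At 2.5 μM it fell below 0.25 as well, to 0.067 after the rescaling and 0.088 without the trend, and 16.6% of its exon bases are shared with HOXB3 on the same strand.

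Between these genes lay neighbours that went the other way. HOXB3, a paralog group 3 gene of the hindbrain and neck, had 14.7 FPKM without JG231, 10.9 FPKM with the lower and 8.31 FPKM with the higher dose, a log2 change of -0.42 and -0.81 (lower, then higher dose). The HOXB3 changes were larger after rescaling without mitochondrial and small RNA genes, at -0.71 and -1.19. HOXB8, which keeps myeloid progenitors from maturing, fell with dose at 9.67, 5.94 and 4.09 FPKM, a log2 change of -0.69 and -1.22 (lower, then higher dose) against a local spread of 0.36. HOXB8 shares no exon base with another gene, and its neighbours HOXB7 and HOXB9 were higher, so the cluster did not move as 1 block. HOXB4, which expands blood stem cells when overexpressed, had 2.61, 1.89 and 2.30 FPKM, a log2 change of -0.44 and -0.18 (lower, then higher dose) that lies within its local spread of 0.68. At 5 μM it was past the threshold after rescaling to a common FPKM sum with or without mitochondrial and small RNA genes, at -0.30 and -0.54, and with the length trend removed, at -0.48. HOXB1 was listed at 0 in all 3 libraries.

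In the HOXA cluster (chr7:27100354-27200091) HOXA9, a regulator of blood progenitors that is highly expressed in many acute leukaemias, dominated with 30.4 FPKM without JG231, 38.0 FPKM with the lower and 34.3 FPKM with the higher dose. Its log2 change was 0.32 and 0.18 (lower, then higher dose), so it passed 0.25 at 2.5 μM and not at 5 μM, with a local spread of 0.25. The 2.5 μM value fell to 0.029 after rescaling without mitochondrial and small RNA genes and to 0.11 with the length trend removed, and the 5 μM value turned to -0.20 and -0.12. Its promoter window of 300 bases in the RefSeq table, the last 50 after the start, on chr7:27165488-27165787 of GRCh38.p14, minus strand, is shown because HOXA9 alone gave 55.8% of the HOXA sum in DMSO. The capitals mark 1 match each to CACGTG, the E-box bound by MYC family dimers, and to TTTATNG on the other strand, a motif of posterior HOX proteins.
HOXA9: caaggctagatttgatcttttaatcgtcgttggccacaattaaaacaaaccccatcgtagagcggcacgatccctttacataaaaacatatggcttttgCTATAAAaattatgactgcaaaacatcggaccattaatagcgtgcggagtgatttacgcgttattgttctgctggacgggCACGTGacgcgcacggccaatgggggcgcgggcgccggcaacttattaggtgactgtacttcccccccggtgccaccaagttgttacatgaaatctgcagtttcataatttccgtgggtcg
HOXA10, which patterns the uterus and the lumbar region, was lower in both JG231 libraries at 9.96 FPKM without JG231, 7.88 FPKM with the lower and 6.89 FPKM with the higher dose, a log2 change of -0.33 and -0.52 (lower, then higher dose). The HOXA10 changes were larger after rescaling without mitochondrial and small RNA genes, at -0.62 and -0.90, and with the length trend removed, at -0.48 and -0.71. HOXA9 and HOXA10 share 15.9% and 9.93% of their exon bases with other genes on the same strand, so part of their fragments may have been counted elsewhere. HOXA13, needed for limb and urogenital development, was also lower, at 5.51 FPKM without JG231, 2.83 FPKM with the lower and 3.34 FPKM with the higher dose, a log2 change of -0.94 and -0.71 (lower, then higher dose). After that rescaling the HOXA13 changes were -1.22 and -1.08, and with the length trend removed they were smaller, at -0.84 and -0.50. The level HOXA sum rested on HOXA9, since the log2 ratio of the sum without it was -0.48 with the lower and -0.32 with the higher dose.

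The remaining HOXA members over 1 FPKM were low and did not follow dose. HOXA3, a gene of pharyngeal organs, had 1.21 FPKM without JG231, 1.90 FPKM with the lower and 0.984 FPKM with the higher dose, higher at 2.5 μM and lower at 5 μM, where the call was lost with a pseudocount of 1 and when centred on the median gene. That call was kept in both rescalings and with the length trend removed. HOXA4, an anterior patterning gene, had 1.74 FPKM without JG231, 1.49 FPKM with the lower and 3.45 FPKM with the higher dose, a log2 change of -0.21 and 0.95 (lower, then higher dose). The 5 μM value fell to 0.58, within its local spread of 0.67, after rescaling without mitochondrial and small RNA genes and also with the length trend removed. HOXA4 shares 31.3% of its exon bases with other genes on the same strand and 16.5% on the opposite strand. HOXA5, which acts in lung development, had 3.39 FPKM without JG231, 1.78 FPKM with the lower and 2.87 FPKM with the higher dose, a log2 change of -0.89 and -0.23 (lower, then higher dose). Apart from HOXA5 at 2.5 μM and HOXA4 at 5 μM, these changes lay within the local spreads of 0.92, 0.67 and 0.55. With the length trend removed, HOXA5 at 5 μM was at -0.60, past its spread, and HOXA4 at 2.5 μM at -0.48. After rescaling without mitochondrial and small RNA genes they were at -0.60 and -0.49 in that order. With all genes in the common sum, HOXA5 at 5 μM was at -0.36. Each of these values passed the threshold. HOXA6 was at 0.774, 0.115 and 1.52 FPKM, which is 16, 3 and 47 fragments, and its change of 0.89 at 5 μM lies within its local spread of 1.08, with a counting interval of the fragment ratio of 0.13 to 1.89. The change fell to 0.54 after rescaling without mitochondrial and small RNA genes and to 0.33 with the length trend removed. HOXA6 has 39.3% of its exon bases opposite HOXA-AS3. At 2.5 μM it did not pass the filter. The other members, HOXA2, HOXA7 and HOXA11, stayed under 1 FPKM, the highest value being 0.799 FPKM for HOXA2 at 2.5 μM. HOXA7 shares 62.5% of its exon bases with the antisense gene HOXA-AS3, and without stated use of the strand in counting the fragments of such pairs cannot be told apart.

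In the HOXD cluster (chr2:176092721-176190907) 3 of 6 members compared were higher and 3 lower at 5 μM, beside 36.5% and 45.1% of all genes, and 4 of the 6 were among those whose sign was fixed by the filter. HOXD8, a central gene of the cluster, rose with dose at 3.24 FPKM without JG231, 9.52 FPKM with the lower and 14.4 FPKM with the higher dose, a log2 change of 1.53 and 2.12 (lower, then higher dose) with a counting interval of the fragment ratio of 1.89 to 2.42 at 5 μM and a local spread of 0.33. HOXD10, which specifies lumbar motor neurons, was lower at 3.53 FPKM without JG231, 0.948 FPKM with the lower and 0.633 FPKM with the higher dose, a log2 change of -1.79 and -2.31 (lower, then higher dose), and passed the filter through DMSO alone at both doses. At 5 μM HOXD8 rested on 910 fragments and HOXD10 on 38, against 137 and 141 in DMSO. HOXD8 shares 24.4% of its exon bases with the antisense gene HOXD-AS2, which had 2.09, 2.30 and 1.37 FPKM over the 3 libraries. HOXD10 shares 18.2% with HOXD11 on the same strand. The promoters of this pair are shown because the genes moved in opposite directions within 1 cluster, HOXD8 at chr2:176129455-176129754 and HOXD10 at chr2:176116528-176116827 of GRCh38.p14, both on the plus strand. Capitals mark the match to TTTATNG in HOXD8 and to CACGTG in HOXD10.
HOXD8: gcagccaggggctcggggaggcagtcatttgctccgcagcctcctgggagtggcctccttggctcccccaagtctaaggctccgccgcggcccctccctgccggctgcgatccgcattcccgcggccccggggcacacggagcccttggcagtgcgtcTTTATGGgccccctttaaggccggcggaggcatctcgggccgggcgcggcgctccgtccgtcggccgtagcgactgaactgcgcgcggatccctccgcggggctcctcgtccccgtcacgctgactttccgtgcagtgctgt
HOXD10: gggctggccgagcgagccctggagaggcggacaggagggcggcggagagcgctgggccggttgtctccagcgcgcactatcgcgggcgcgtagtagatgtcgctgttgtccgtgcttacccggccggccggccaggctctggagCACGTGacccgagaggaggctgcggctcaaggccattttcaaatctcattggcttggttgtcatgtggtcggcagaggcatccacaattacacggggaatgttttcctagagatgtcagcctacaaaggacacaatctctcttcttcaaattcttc
Among the other HOXD members, HOXD9, a posterior gene of trunk and limb, had 2.23 FPKM without JG231, 1.60 FPKM with the lower and 1.56 FPKM with the higher dose, a log2 change of -0.45 and -0.49 (lower, then higher dose) that lies within its local spread of 0.71. The HOXD9 changes passed that spread after rescaling without mitochondrial and small RNA genes, at -0.73 and -0.85. With the length trend removed they were -0.68 and -0.82, past it at 5 μM alone. HOXD11, which patterns the forearm, had 1.38, 1.61 and 0.0591 FPKM, and its change of -3.22 at 5 μM rests on 3 fragments and on the pseudocount, the fragment ratio having a counting interval of -6.88 to -2.92. HOXD1, which acts in pain-sensing neurons, had 0.598, 3.23 and 1.85 FPKM, a log2 change of 2.25 and 1.48 (lower, then higher dose). The HOXD1 values are uncertain, since 60.1% of its exon bases lie opposite other genes, among them HAGLR. HOXD4, a hindbrain gene, was listed at 0 in DMSO and at 0.939 FPKM at 2.5 μM and 1.02 FPKM at 5 μM, or 22 and 28 fragments, and after rescaling to a common FPKM sum, with or without mitochondrial and small RNA genes, it no longer passed the filter at 5 μM. HOXD3 and HOXD13 stayed under 1 FPKM, with highest values of 0.328 and 0.610 FPKM, and HOXD12 was listed at 0.

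The HOXC cluster (chr12:53938831-54056030) was nearly silent apart from HOXC4. HOXC4, an anterior member of the trunk, fell with dose at 6.25 FPKM without JG231, 4.18 FPKM with the lower and 2.62 FPKM with the higher dose, a log2 change of -0.57 and -1.22 (lower, then higher dose) with a counting interval of the fragment ratio of -1.54 to -0.98 at 5 μM. The changes were -0.86 and -1.59 after rescaling without mitochondrial and small RNA genes. HOXC4 shares 17.5% of its exon bases with other genes on the same strand. It gave 82.0% of the HOXC sum in DMSO. HOXC6, HOXC9 and HOXC10 had highest values of 0.596, 0.629 and 0.213 FPKM. The remaining 6 rows, for HOXC5, HOXC8, HOXC11, HOXC12 and HOXC13, were listed at 0 in all 3 libraries. The first HOXC5 row shares 67.3% of its exon bases with other genes on the same strand and all bases of the second are shared. The part of the assignment of shared fragments in these zeros was not tested. The promoter window of HOXC4 on chr12:54016638-54016937 of GRCh38.p14, plus strand, which the table also gives for HOXC5, is shown as that of the only HOXC gene over 1 FPKM, with its match to TTTATNG in capitals.
HOXC4: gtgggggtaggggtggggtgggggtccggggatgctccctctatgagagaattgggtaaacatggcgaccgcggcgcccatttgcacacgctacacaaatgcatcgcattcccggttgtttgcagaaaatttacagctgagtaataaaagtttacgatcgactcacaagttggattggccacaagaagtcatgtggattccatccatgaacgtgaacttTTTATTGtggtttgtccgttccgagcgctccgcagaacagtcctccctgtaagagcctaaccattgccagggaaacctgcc
The RefSeq table used matched 20 of the 37 symbols, with 26 different windows, of which 7 are of HOXA3 and 1, that of HOXB1, is of the HOXB cluster, so the shares below do not describe the expressed HOXB genes. On either strand, CACGTG was found in 9 of the 26 windows, or 34.6%, beside 7.26% of 35116 promoters of the same length. TTTATNG was found in 6 windows, or 23.1%, beside 9.73% of all promoters, and TGATNNAT, a motif of PBX with HOX, in 3, or 11.5%, beside 7.40%. HOX windows are rich in CpG, with a median of 22.5 beside 14.0, and those of 1 gene can lie close together, so the shares are descriptions of letters, not of binding.

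Between the doses, as among all genes, fewer members passed the threshold than against DMSO. Of 21 rows that could be compared, 5 were higher and 6 lower at 5 μM than at 2.5 μM, beside 26.8% and 30.1% of 14197 genes. Of the members over 5 FPKM in DMSO, HOXB3, HOXB8 and HOXC4 were lower at 5 μM than at 2.5 μM by more than 0.25, at -0.39, -0.53 and -0.65. The other lower members were HOXA3, HOXD1 and HOXD11, at -0.89, -0.77 and -3.42. The 5 higher members, all under 5 FPKM in DMSO, were HOXA4, HOXA5, HOXA6, HOXB4 and HOXD8, at 1.16, 0.66, 2.92, 0.27 and 0.59. In this comparison HOXA6 passed the filter through the 5 μM library alone, and HOXA3 and HOXD11 through the 2.5 μM library alone. The sign of their change between the doses was therefore fixed by the filter. HOXA6 rested on 3 fragments at 2.5 μM and HOXD11 on 3 at 5 μM. The changes of HOXB4 and HOXA3 lay within their local spreads of 0.68 and 0.92. HOXB2, HOXB7 and HOXB9 differed by 0.04, 0.08 and 0.01, so their higher level at 2.5 μM did not grow with dose. By paralog group at 5 μM, 4 of 8 members compared in groups 1 to 4 were higher and 3 lower, in groups 5 to 8 5 of 7 were higher and 1 lower, and in groups 9 to 13 1 of 7 was higher and 5 lower, beside 36.5% and 45.1% of all genes. At 2.5 μM the counts were 3 and 3 of 7, 4 and 2 of 6, and 2 and 4 of 7, beside 36.4% and 43.4%. The counts at 5 μM hold the 6 members whose sign was fixed by the filter, and those at 2.5 μM hold HOXD1 and HOXD10, fixed likewise. Groups 9 to 13 summed to 73.1, 82.0 and 76.1 FPKM, with log2 ratios of 0.16 and 0.06. The ratios were 0.41 and 0.35 for groups 1 to 4 and 0.56 and 0.67 for groups 5 to 8.

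Of the long non-coding RNAs of the clusters, 2 were higher in both JG231 libraries and 5 that were above 0 in DMSO were listed at 0 in both. HAGLROS, transcribed opposite to HAGLR in the HOXD cluster, had 12.5 FPKM without JG231, 20.1 FPKM with the lower and 22.1 FPKM with the higher dose, a log2 change of 0.68 and 0.81 (lower, then higher dose). HOTAIRM1, a myeloid RNA of the HOXA cluster, had 8.56 FPKM without JG231, 14.8 FPKM with the lower and 18.7 FPKM with the higher dose, a log2 change of 0.78 and 1.12 (lower, then higher dose). HAGLR, antisense in the HOXD cluster, had 8.05, 5.41 and 6.96 FPKM, a log2 change of -0.57 and -0.21 (lower, then higher dose). HOXB-AS1, antisense near HOXB2 and HOXB3, had 4.86, 1.54 and 1.36 FPKM, a log2 change of -1.60 and -1.77 (lower, then higher dose). Of the 18 RNAs, 9 were over 1 FPKM in DMSO and 5 in each JG231 library. HOXC-AS1, HOXB-AS4 and HOXB-AS2 were at 2.31, 1.86 and 1.25 FPKM in DMSO and listed at 0 in both JG231 libraries, and they rested on 22, 20 and 17 fragments in DMSO. Of the 7 non-coding RNAs with 10 to 50 fragments in DMSO, 6 were listed at 0 at 5 μM, beside 49.0% of 4226 genes with as many fragments, and 5 at 2.5 μM, beside 33.5%. Of 11 HOX members with as many fragments, 2 were listed at 0 at 5 μM. HOTAIR, a non-coding RNA of the HOXC cluster, was listed at 0 in all 3 libraries. Of the 9 RNAs that could be compared, 2 were higher and 6 lower at each dose, beside 36.5% and 45.1% of all genes at 5 μM and 36.4% and 43.4% at 2.5 μM, but 4 of these 6 passed the filter through DMSO alone, so their sign was fixed.

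**Figure D4:**
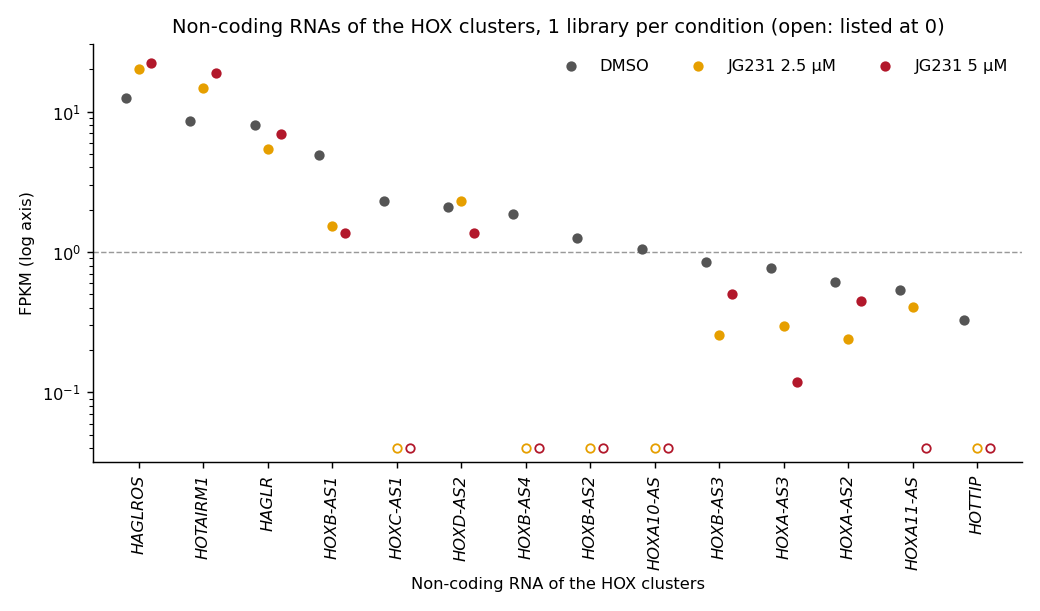
FPKM on a log axis of the non-coding RNAs of the HOX clusters above 0 in at least 1 library, ordered by DMSO level, with 1 point for each of the 3 libraries and open points at the bottom for values listed at 0. HAGLROS and HOTAIRM1 are higher in both JG231 libraries, and 5 RNAs are listed at 0 in both.

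The HOX cofactors and the regulators of the clusters moved in both directions. Of 11 genes in the list of TALE cofactors, 9 could be compared at 5 μM, and 3 were higher and 4 lower, 1 of the 4 having passed the filter through DMSO alone, beside 36.5% and 45.1% of all genes, with a median of 0.041. The list also holds PBXIP1, a partner of PBX proteins and 1 of the 4 lower. TGIF1, a TALE repressor, had 37.3 FPKM without JG231, 44.2 FPKM with the lower and 42.7 FPKM with the higher dose, a log2 change of 0.24 and 0.19 (lower, then higher dose). PBX3, which pairs with HOX proteins on DNA, was higher at 15.3, 24.1 and 23.2 FPKM, while PBX2, its paralog, had 17.7, 18.6 and 18.3 FPKM. PBXIP1, which binds PBX proteins and keeps them from HOX complexes, was lower at 19.9, 7.66 and 9.01 FPKM, a log2 change of -1.37 and -1.14 (lower, then higher dose). MEIS3, a TALE cofactor of the hindbrain, changed by -0.77 at 5 μM.

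Of 23 Polycomb genes, 10 were higher and 7 lower at 5 μM and 12 higher and 4 lower at 2.5 μM, and of 18 trithorax and activator genes, 4 were higher and 8 lower at 5 μM and 5 higher and 5 lower at 2.5 μM. The shares of all genes were 36.5% higher and 45.1% lower at 5 μM and 36.4% and 43.4% at 2.5 μM. The genes named here, picked for level or size of change, were all lower, unlike the lists as a whole. RBBP4 and RBBP7, histone-binding subunits shared by several chromatin complexes, were lower, at 55.1, 39.0 and 43.5 FPKM and 40.5, 25.0 and 26.2 FPKM over the 3 libraries. PSIP1, which ties menin and KMT2A to chromatin, had 34.5, 26.5 and 27.3 FPKM. KMT2D, a methyltransferase of enhancer chromatin, was lower at 4.60, 1.43 and 1.09 FPKM, a log2 change of -1.62 and -1.98 (lower, then higher dose), and AFF1, a scaffold of elongation complexes, at 7.16, 4.61 and 2.64 FPKM. The median change at 5 μM was 0.08 for the Polycomb genes and -0.06 for the trithorax genes, beside -0.11 for all genes. Of 10 genes of retinoic acid signalling and the CDX factors, both known inputs to HOX transcription, 6 could be compared at 5 μM, and 4 were higher and 1 lower, 1 of the 4 having passed the filter through the JG231 library alone, while at 2.5 μM 2 of 5 were higher and 1 lower. The factors CDX1, CDX2 and CDX4 were listed at 0 throughout.

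Genes flanking the clusters gave no common direction. Of 10 that could be compared at 5 μM, 4 were higher and 3 lower, beside 36.5% and 45.1% of all genes, with a median of -0.03. MTX2, a mitochondrial outer membrane gene beside HOXD, rose at 18.1, 32.0 and 40.9 FPKM over the 3 libraries, and SKAP2, an adaptor of immune signalling beside HOXA, fell at 12.3, 6.38 and 5.38 FPKM. SKAP1, an adaptor beside HOXB, had 4.18, 4.08 and 6.65 FPKM. CBX1, a heterochromatin protein gene near HOXB, had 42.1, 47.8 and 53.2 FPKM, and HIBADH, an enzyme of valine breakdown near HOXA, had 27.6, 33.4 and 29.3 FPKM. HNRNPA1, a splicing factor near HOXC, was the highest of the list at 337 FPKM without JG231, 329 FPKM with the lower and 301 FPKM with the higher dose, a log2 change of -0.04 and -0.17 (lower, then higher dose). The homeobox genes EVX1 and EVX2, at the ends of HOXA and HOXD, were listed at 0.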

How the data were processed

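The 3 libraries, 1 per condition, came from H660 cells kept for 24 h in DMSO or in JG231 at 2.5 or 5 μM. The authors deposited FPKM values for 58735 genes, which the study's methods describe as aligned with HISAT and quantified with StringTie, and the submitters' processing notes name HISAT2, featureCounts and GRCh38; versions and the annotation release are not given in the sources used here. The records describe stranded libraries, the methods a different RNA input, and neither says whether counting used the strand, so antisense and overlapping genes are uncertain. The members and lists were chosen with earlier results of these data known. Some genes of the clusters and lists are not reported here and were left out of the member and list counts, sums and medians after the first analysis.

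Gene identifiers were looked up in GENCODE release 44, where 58207 were found. Changes were computed as log2 with a pseudocount of 0.1, after a filter of an FPKM over 1 in either library and an absolute change over 0.25. The study's filter has these values and also kept genes going from or to 0, which here were kept only if over 1 FPKM in the other library. Counting intervals are exact conditional 95% intervals of the ratio of 2 fragment numbers, without the pseudocount, and for cluster sums normal approximations. They cover counting error only. HOX members over 1 FPKM in at least 1 library were named, with the 4 highest in DMSO and the 3 with the largest change at 5 μM of the cofactor, Polycomb with trithorax, non-coding and flanking lists, less those not reported. Other genes were named after their values were seen. Promoters came from RefSeq, and the motifs and the window of 10 to 50 fragments were also picked after the values were known. The scripts were tested on simulated data. Alternatives were pseudocounts of 1 and 0.01, other filters, a threshold of 1, 2 rescalings, centring, and subtraction of a lowess curve (fraction 0.3) on transcript length. Software was pandas 2.3.3, numpy 2.4.6, statsmodels 0.14.6, scipy 1.17.1 and, for plots, matplotlib 3.10.9 under Python 3.11.15.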

Additional observations from a re-analysis of the deposited data

Results flagged for a closer look

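HOXA3 passed the threshold in opposite directions at the 2 doses, with a change of 0.61 at 2.5 μM and -0.28 at 5 μM on the log2 scale. The gene passed the filter through DMSO alone at 5 μM, so its sign there was fixed, and that value was -0.157 with a pseudocount of 1 and -0.165 when centred on the median gene, within the threshold. It stayed past the threshold with a common FPKM sum, at -0.39, and with the length trend removed, at -0.35. Rescaling without mitochondrial and small RNA genes gave -0.62 at 5 μM and 0.34 at 2.5 μM. The difference was not tested, since each dose had 1 library. The counting interval of the fragment ratio was 0.26 to 1.04 at 2.5 μM and -0.73 to 0.13 at 5 μM, and the local spread was 0.92.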

How the results depend on the processing

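The counts of higher and lower HOX members stayed within 1.5 times under the pseudocounts of 1 and 0.01, the filter on mean FPKM, both rescalings, centring on the median gene and the removal of the length trend. The median member had a counting interval of -0.088 to 0.22 at 5 μM and -0.24 to 0.26 at 2.5 μM, from fragments redrawn as Poisson numbers, and left it at 5 μM with no filter (-0.25), the filter on mean FPKM (-0.20), the common FPKM sum (-0.30) and the length trend removed (-0.23), and at 2.5 μM in the last of these (-0.27). The medians of all genes in the same order of settings were -0.27, -0.0081, -0.25 and -0.16 at 5 μM, and -0.15 at 2.5 μM in the last. With genes going from or to 0 also kept, chosen after seeing the data, 10 members were higher and 12 lower at 5 μM and 10 and 11 at 2.5 μM, with medians of -0.23 and -0.21, beside 31.1% and 54.2% of all genes with a median of -0.395 at 5 μM and 34.7% and 49.0% with a median of -0.223 at 2.5 μM. Without a filter on low values, more rows were compared, and 10 of 30 members were higher and 15 lower at 5 μM, beside 29.6% and 50.5% of all genes. At 2.5 μM 11 were higher and 14 lower, beside 32.6% and 48.4%. The rows newly compared at 5 μM were all lower or within the threshold. With a threshold of 1, the numbers of higher and lower members fell to 3 and 4 at 5 μM and to 3 and 1 at 2.5 μM, and with the rule of 2 local spreads, chosen after seeing the data, 5 were lower at 5 μM and 1 at 2.5 μM. Leaving mitochondrial and small RNA genes out of the common sum put the median member at -0.54 at 5 μM and -0.28 at 2.5 μM, and the log2 ratios of the cluster sums at 5 μM at -0.40 for HOXA, 0.14 for HOXB, -1.55 for HOXC and 0.39 for HOXD, and those at 2.5 μM at -0.27, 0.24, -0.81 and 0.31. With all genes in the common sum the 5 μM ratios were -0.15 for HOXA and 0.39 for HOXB. Centred on the median gene, HOXA was at 0.088 and HOXB at 0.63 at 5 μM, and at 0.0997 and 0.61 at 2.5 μM. Without the most abundant member of each cluster in DMSO, the ratios at 5 μM were -0.32 for HOXA, 0.40 for HOXB, -0.84 for HOXC and 1.24 for HOXD, and at 2.5 μM -0.48, 0.43, -0.29 and 1.03. Without the member with the largest FPKM difference, chosen after seeing the data, HOXD turned to -0.55 at 5 μM and -0.018 at 2.5 μM, HOXB was at 0.384 and 0.43, and HOXA and HOXC lost the same members as before. In the 2 rescalings, the centring and without the most abundant member, the sign turned for HOXA alone among the clusters. The other settings were not run on the cluster sums. Of the changes of single members past the threshold, only HOXB6 at 5 μM turned, to -0.060 without mitochondrial and small RNA genes and -0.056 without the length trend, and calls were also lost for HOXB6 and HOXA9 at 2.5 μM and HOXA3 at 5 μM. At 5 μM HOXD4 was no longer compared in both rescalings and, with HOXA6, under the filter on mean FPKM. In some settings the threshold was newly passed by HOXA5, HOXA9 and HOXB4 at 5 μM and by HOXA4 and HOXD11 at 2.5 μM. The causes were not tested. The 2 other filters leave the log2 value of a single member as it is and gave no separate value. Depth limits members under 50 fragments, and with 1 library per condition the spread between cultures is unknown.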
